A study of Mus musculus with 15 samples.

Results

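Lung basophils of mice that had inhaled papain were compared with lung basophils of naive mice by RNA sequencing. The comparison rests on 4 of the 15 libraries of the study, 2 of naive basophils and 2 of papain basophils, chosen by their labels, and on all 21110 genes of the deposited table, of which 14170 could be tested. All mice were of strain C57BL6/J. Papain mice received 50 ug of papain per mouse through the nose on each of 3 days, and naive mice are labelled as having no treatment, so no vehicle control stands beside papain. Basophils were sorted from lung as cells positive for FceR1 and CD49b and negative for c-kit. Age, sex and the number of mice per library are not given in the sources used here, and nothing says that the libraries labelled 1 and 2 came from separate mice. The p-values below therefore measure only the spread between these libraries, which may be technical. The other libraries used are natural helper cells, which are group 2 innate lymphoid cells sorted by Thy1.2, IL7Ra and CD25 among cells without lineage markers (2 naive and 2 papain), and eosinophils (2 naive, 2 papain CD11c- and 2 papain CD11c+), which lend their spread to the fit. A single papain library of natural helper cells labelled 3'UTRKO was left out of the fit because it has no replicate.

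Papain is a plant cysteine protease used as a model airway allergen. Basophils are rare granulocytes that carry the high-affinity IgE receptor, store histamine and proteases in granules, and secrete IL-4 and IL-13 early in type 2 responses. The transcription factor GATA2 sustains their identity. In lung tissue they lie among fibroblasts, endothelial cells, and alveolar and airway epithelial cells, whose transcripts are given here as separate gene lists.

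Values are FPKM, fragments corrected for the length of the transcript and the size of the library, rounded to whole numbers by the authors, and they carry no read depth. A gene is said to rise or fall where limma gave a Benjamini-Hochberg adjusted p under 0.05 on log2(FPKM + 1). Fold changes on this scale, given as log2 ± standard error with n = 2 libraries per group, understate the change of genes with low values. The rise was the commoner direction: 889 genes (6.27% of those tested) were higher and 175 (1.24%) were lower in papain basophils, 1064 in all (7.51%). Of these, 580 reached a mean of 10 FPKM in the higher group. In simulated data 2 of 60 false calls did so, but changes were simulated only in genes above 10 FPKM in naive basophils. The reliability of calls below that level, such as those from 0 to 1 FPKM, was therefore not measured. Nor was that of rises from near 0. The median over all genes tested was a log2 difference of 0.50, so list medians are given beside that value. Counts of calls in each list below stand beside the shares of all genes called, 6.27% higher and 1.24% lower. At an unadjusted p under 0.05 in limma, 3062 of the 14170 genes tested were higher and 545 were lower. Every list count at an unadjusted p under 0.05 below is to be read against these 2 numbers. With quantile normalization 44.7% of the calls were rises, against 83.6% without it and 65.1% with median-ratio scaling. A fit of the 4 basophil libraries alone called 490 genes (3.84% of 12758), with 3.05% higher and 0.792% lower, of which 203 were among the 1064.

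The 2 papain libraries differed from each other more than any other replicate pair. Among genes averaging at least 10 FPKM, 24.6% differed by more than 2-fold between them, against 9.34% between the 2 naive basophil libraries, and their log2 values correlated at 0.840 against 0.900 to 0.961 in the other groups. FPKM summed to between 428145 and 570208 per basophil library, and between 10516 and 13049 genes had a value above 0. The number of calls also changed when 1 basophil library was left out. It was much lower without either naive library, higher without papain library 1 and slightly lower without papain library 2. In these fits the lone library was given the spread of the other basophil group. The counts therefore do not show how far the calls rest on any 1 library, and this holds for each such count below.

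Basophil identity genes had lower values in papain basophils. Of the 10 markers, all of which were tested, Fcer1a and Ms4a2 fell, 9 were below both naive libraries in both papain libraries (8.96% of all genes were), and the median log2 difference was -2.46, against 0.50 over all genes. The count of 2 was 0 without naive library 1 and 1 without naive library 2, 2 without papain library 1 or without papain library 2, and 5 with median-ratio scaling. Papain library 2 lay above papain library 1 in 8 of the 10 (39.8% of all genes did). In bulk RNA, fewer cells of a type and less RNA per cell cannot be told apart, and this holds for each list below. No marker was at 0 in any of the 4 libraries, and apart from the CD49b gene Itga2 each of the 10 had at least 5 FPKM in every library.

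Fcer1a, the IgE-binding alpha chain of the high-affinity IgE receptor, was at 141 and 194 FPKM in naive libraries 1 and 2 and at 23 and 18 in papain libraries 1 and 2. Its groups did not overlap and it fell by 2.96 ± 0.59 (adjusted p = 0.0195). The sort selected cells by the surface protein of this receptor, which was not measured here. Ms4a2, the receptor's beta chain, was at 47 and 50 FPKM in naive and at 5 in both papain libraries and fell by 3.04 ± 0.50 (adjusted p = 0.00946). The shared gamma chain Fcer1g, which other myeloid cells also use, did not pass and was at 581 and 563 FPKM in naive and at 446 and 911 in papain libraries, with overlapping groups.

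Hdc, which makes histamine, was the most abundant of the 10 markers, at 2955 and 3199 FPKM in the naive pair and 375 and 1188 in papain libraries. Both papain libraries were low and papain library 1 was the lowest, and the difference of -2.20 ± 0.83 did not pass (adjusted p = 0.138). Gata2 was at 664 and 845 FPKM in naive and at 82 and 378 in papain libraries (-2.08 ± 0.93, adjusted p = 0.201). Cyp11a1, a steroid-synthesis enzyme, was at 875 and 845 in naive and at 101 and 281 in papain libraries (-2.34 ± 0.83, adjusted p = 0.12). All 3 genes shared this order, with papain library 1 below papain library 2 and both below the naive pair.

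The granule protease gene Mcpt8, which is used to mark mouse basophils, was at 824 and 252 FPKM in naive and at 30 and 95 in papain libraries (-3.07 ± 0.96, adjusted p = 0.0874). Prss34, another basophil protease, was at 700 and 48 in naive and at 7 and 20 in papain libraries, so that the naive libraries themselves lay far apart. Cd200r3, an activating surface receptor, was at 212 and 160 in naive and at 22 and 41 in papain libraries (-2.57 ± 0.76, adjusted p = 0.0748). Il3ra, the alpha chain of the IL-3 receptor, was the 1 marker whose groups overlapped, at 43 and 48 FPKM in naive and at 10 and 73 in papain libraries. Itga2 was at 5 and 3 in naive and at 1 and 2 in papain libraries.

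**Figure D1:**
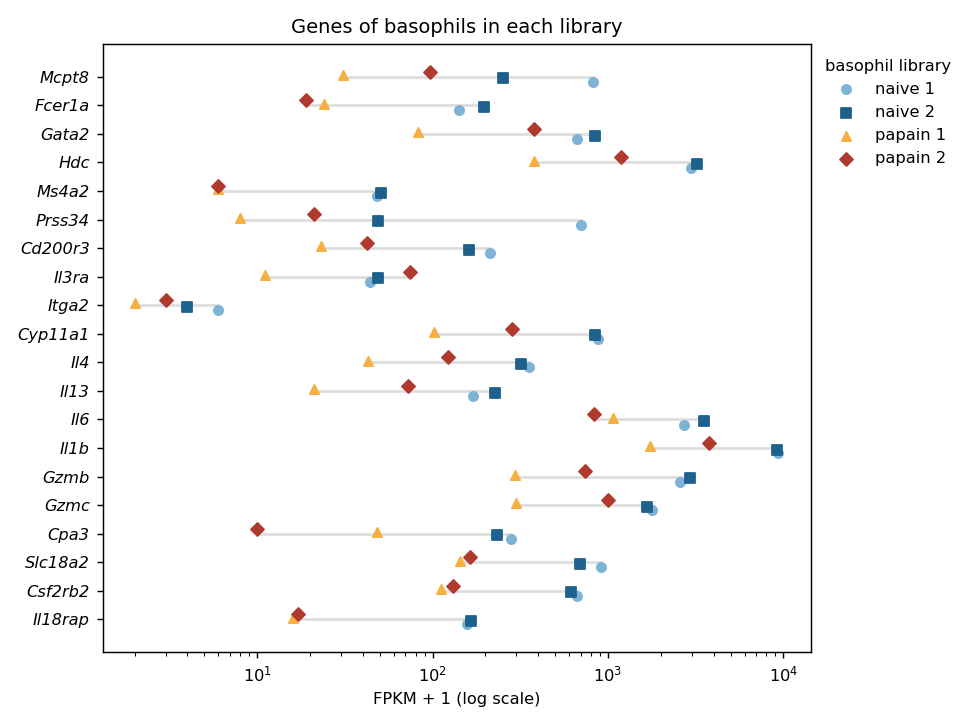
FPKM + 1 of 20 basophil genes on a logarithmic axis, with 1 point per library for 2 naive and 2 papain libraries. Fcer1a and Ms4a2 lie well below their naive values in both papain libraries, while Hdc, Gata2 and Cyp11a1 are lowest in papain library 1.

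The promoters of these genes are shown because GATA factors read the motif GATAA, which appears as its reverse complement TTATC where it lies on the opposite strand. It was searched on both strands of the RefSeq promoters (GRCm38.p6, 250 bases before to 50 after the start site). Of the 10 markers, 4 held it, against 28.4% of the 27025 genes with a promoter entry and 4 of 16 fibroblast genes. A match is a description of letters and not a measured binding site. The windows below run 5′ to 3′ along the gene's strand, with the motif in capitals, and the motif begins 92 bases before the start site in Fcer1a, 37 in Ms4a2, 30 in Prss34, 38 in Cd200r3, 45 in Cpa3 and 80 in Il13. The last 2 are a granule protease and a cytokine described further on. Ms4a2 and Cd200r3 each held 1 further match that is not shown.
Fcer1a, chr1:173227305-173227333, minus strand: acaaccctattaTTATCtctggagaaagc
Ms4a2, chr19:11623740-11623768, minus strand: cagcctggagacTTATCtgacaagtaggt
Prss34, chr17:25298352-25298380, plus strand: ctgtggaagaaaGATAAatgggaccctgg
Cd200r3, chr16:44943628-44943656, plus strand: actggagatgaaGATAAagatagaggaat
Cpa3, chr3:20242210-20242238, minus strand: gctgttcgtcgaGATAAaagctgaggtat
Il13, chr11:53634766-53634794, minus strand: atgtggttttcaGATAAtgcccaacaaag

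Below the IgE receptor, the kinases and adaptors that pass on its signal moved less than its alpha and beta chains. Of 16 genes tested of this list (Syk is named only), those 2 chains were the calls. Below both naive libraries in both papain libraries lay 10 of the 16, against 8.96% of all genes, and the list's median was -0.53. Lyn, the first kinase at the receptor, was at 60 and 43 FPKM in naive and at 41 and 40 in papain libraries. Lcp2, an adaptor, was at 134 and 84 in naive and at 48 and 76 in papain libraries.

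Mediator synthesis split by enzyme. Of 14 genes tested for histamine and lipid mediators, Slc18a2 and Alox5 fell and Ptgs1 rose, while 1.24% and 6.27% of all genes did so. The list's median of 0.33 was -0.10 with median-ratio scaling and -0.36 with quantile normalization. Slc18a2, the vesicular transporter that loads histamine into granules, was at 905 and 687 FPKM in naive and at 142 and 163 in papain libraries and fell by 2.37 ± 0.42 (adjusted p = 0.0128). Alox5, which starts leukotriene synthesis, was at 45 and 54 in naive and at 11 and 13 in papain libraries and fell by 1.96 ± 0.39 (adjusted p = 0.021). Both genes were alike in the 2 papain libraries, unlike Hdc.

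The partner of Alox5, Alox5ap, was at 935 and 927 FPKM in naive and at 381 and 505 in papain libraries, and did not pass (adjusted p = 0.37). Ptgs1, the constitutive cyclooxygenase, was listed at 0 in both naive libraries and at 11 and 16 FPKM in papain libraries (adjusted p = 0.00442). Ptgs2, the inducible cyclooxygenase, had overlapping groups, at 224 and 361 in naive and at 204 and 391 in papain libraries.

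Granule genes were lower as a list. Of 17 tested, Srgn, Ctse and Tpsg1 fell. Below both naive libraries in both papain libraries lay 12 of the 17, against 8.96% of all genes, and the median was -2.55. Srgn, the proteoglycan that packs granule proteases, was at 5777 and 6010 FPKM in naive and at 1955 and 2532 in papain libraries (adjusted p = 0.0471). Ctse, the aspartic protease cathepsin E, was at 14 and 25 in naive and at 2 and 0 in papain libraries (adjusted p = 0.00813). Tpsg1, a membrane-bound tryptase, was at 1 FPKM in both naive libraries and at 0 in both papain libraries. Most false calls of the simulated data fell at such low levels, where no change was simulated.

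The cytotoxic granule protease gene Gzmb was at 2582 and 2919 FPKM in naive and at 295 and 739 in papain libraries (-2.55 ± 1.01, adjusted p = 0.155). Its close relative Gzmc, with which it may share reads, was at 1780 and 1670 in naive and at 296 and 992 in papain libraries. Neither passed, and in both genes papain library 1 was the lower. Cpa3, a carboxypeptidase shared with mast cells, had the opposite order, at 278 and 231 FPKM in naive and at 47 and 9 in papain libraries (-3.54 ± 1.14, adjusted p = 0.0938).

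The proteases of connective tissue mast cells shared the order of Cpa3. Mcpt4 was at 105 and 153 FPKM in naive and at 45 and 0 in papain libraries, Cma1 was at 90 and 94 against 51 and 0, and Tpsb2 was at 89 and 101 against 51 and 0. Kit, the stem cell factor receptor against which cells were sorted, was at 7 in both naive libraries and at 5 and 4 in papain libraries. All 6 mast cell genes tested lay below both naive libraries in both papain libraries, against 8.96% of all genes. Mrgprb1 at 3, 3, 1 and 0 FPKM was the call. The median of the list was 89 and 94 FPKM in naive, 45 in papain library 1 and 0 in papain library 2. What part these transcripts have in the values of granule genes that mast cells share was not tested.

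Cytokine genes differed in both directions. Of 22 tested, Il4 fell and Il5, Il33, Csf3, Lif and Hbegf rose, and the list's median of 0.43 was -0.04 with quantile normalization. Il4 was at 353 and 319 FPKM in naive and at 42 and 122 in papain libraries and fell by 2.21 ± 0.43 (adjusted p = 0.0187, or 0.175 in the 4 libraries alone). Il13 was at 169 and 226 in naive and at 20 and 71 in papain libraries (-2.34 ± 0.64, adjusted p = 0.0619). Il6 was at 2713 and 3535 in naive and at 1066 and 828 in papain libraries (-1.72 ± 0.62, adjusted p = 0.124). In each of these 3 cytokines the groups did not overlap. Osm, a cytokine of the IL-6 family, overlapped, at 835 and 1136 FPKM against 277 and 1178 in papain libraries.

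Among the cytokines that rose, Lif, of the same family as Osm, was at 8 and 9 FPKM in naive and at 73 and 106 in papain libraries, 3.23 ± 0.65 higher (adjusted p = 0.0204). Il33, an alarmin of epithelial, endothelial and stromal cells, was at 1 and 0 in naive and at 20 and 32 in papain libraries (4.22 ± 0.68, adjusted p = 0.00895). Il5, the eosinophil growth factor, was listed at 0 in both naive libraries and at 12 and 9 FPKM in papain libraries (adjusted p = 0.0396). Il5 and Lif were called in the 4 libraries alone as well, at 0.0209 and 0.0377.

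Csf3, the granulocyte growth factor, was at 1 and 0 FPKM in naive and at 17 and 170 in papain libraries (adjusted p = 0.0318). Hbegf, an epidermal growth factor family ligand, was at 3 and 0 in naive and at 21 and 88 in papain libraries (adjusted p = 0.0393). Both were highest in papain library 2. The abundant inflammatory cytokine Il1b was at 9357 and 9161 FPKM in naive and at 1727 and 3748 in papain libraries and did not pass (adjusted p = 0.603).

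Set against Hdc within each library, Il4 and Il13 barely differed between the groups. Il4 had 11.9 and 9.97 FPKM per 100 FPKM of Hdc in naive libraries and 11.2 and 10.3 in papain libraries, a log2 difference of -0.03 with a pooled SD of 0.14. Il13 had 5.72 and 7.06 per 100 in the naive pair and 5.33 and 5.98 in papain libraries (-0.17, SD 0.17). Gata2 (22.5 and 26.4 against 21.9 and 31.8) and Cyp11a1 (29.6 and 26.4 against 26.9 and 23.7) overlapped as well. Hdc was chosen as the denominator because it is the most abundant marker. With Gata2 or Cyp11a1 in its place, chosen after the data were seen, the log2 difference of Il4 was -0.14 or 0.12 and that of Il13 was -0.29 or -0.02. No test was made of these ratios, and 2 libraries a group give them little precision.

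Other genes did not keep their ratio to Hdc. The chemokine Ccl3 had 163 and 165 FPKM per 100 of Hdc in the naive pair and 298 and 391 in papain libraries, a log2 difference of 1.06 with a pooled SD of 0.20. Cxcl2, a neutrophil attractant, had 87.6 and 116 per 100 in the naive pair and 311 and 478 in papain libraries. Vegfa, the endothelial growth factor, had 5.99 and 6.22 in the naive pair and 13.1 and 14.8 in papain libraries. The ratios of Ccl4, Osm and Ier3 were higher in both papain libraries as well, while that of Il6 overlapped, at 91.8 and 111 against 284 and 69.7.

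Ratios below both naive libraries in both papain libraries were also found. Il18rap had 5.28 and 5.16 FPKM per 100 of Hdc in the naive pair and 4 and 1.35 in papain libraries, Ms4a2 had 1.59 and 1.56 against 1.33 and 0.421, and Gzmb had 87.4 and 91.2 against 78.7 and 62.2.

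Below the naive range in papain library 2 were Fcer1a, at 4.77 and 6.06 per 100 FPKM of Hdc in the naive pair and 6.13 and 1.52 in papain libraries, and Cpa3, at 9.41 and 7.22 in the naive pair and 12.5 and 0.758 in papain libraries. Slc18a2 was at 30.6 and 21.5 in naive and at 37.9 and 13.7 in papain libraries. For these 3 genes the ratio was above both naive libraries in papain library 1 and below both in papain library 2.

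**Figure D2:**
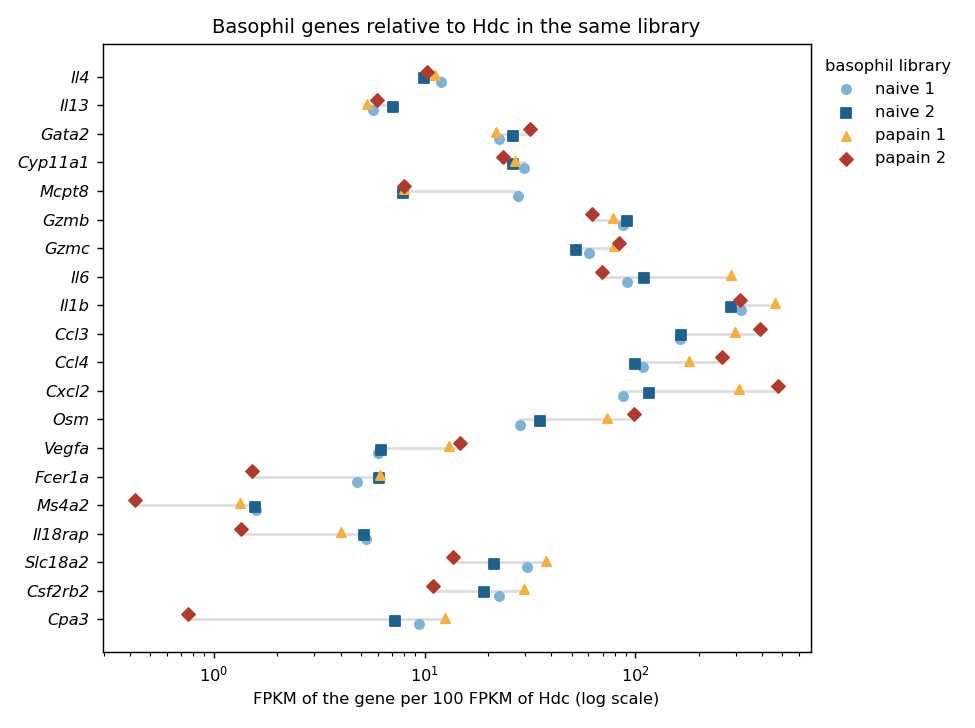
FPKM of basophil genes per 100 FPKM of Hdc in the same library, on a logarithmic axis, with 1 point per library. Il4, Il13, Gata2 and Cyp11a1 lie together in the 4 libraries, Ccl3, Cxcl2 and Vegfa are higher in both papain libraries, and Fcer1a and Cpa3 are low in papain library 2.

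Chemokine genes were mostly higher, with 6 of 26 rising and none falling in limma (11 and 0 at an unadjusted p under 0.05), and a median of 2.46. Cxcl1, a neutrophil attractant, was at 28 and 5 FPKM in naive and at 960 and 986 in papain libraries, 6.21 ± 0.86 higher (adjusted p = 0.00442). The monocyte attractant Ccl2 was at 56 and 6 in naive and at 716 and 465 in papain libraries (4.85 ± 1.06, adjusted p = 0.0298). Its relative Ccl7 was at 45 and 23 in naive and at 440 and 176 in papain libraries (3.07 ± 0.53, adjusted p = 0.011). For these chemokines naive library 1 was the higher of the naive pair. Cxcl1, Ccl2 and Ccl7 were also higher in each papain eosinophil library than in naive eosinophils. Cxcl1 was at 16 and 7 FPKM in naive eosinophils. In papain eosinophils it was at 345 and 309 in CD11c- cells and at 709 and 643 in CD11c+ cells. Whether these responses differ from those of basophils was not tested.

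Cxcl12, a stromal chemokine, was listed at 0 in both naive libraries and at 39 and 13 FPKM in papain libraries (adjusted p = 0.0039). Ccl11, the eosinophil attractant eotaxin, was listed at 0 in both naive libraries and at 107 and 3 in papain libraries, and Cxcl5 was at 4 and 0 against 21 and 116. The abundant chemokines of naive basophils were not among the rises. Ccl3 was at 4805 and 5266 FPKM in naive and at 1116 and 4643 in papain libraries, and Ccl4 was at 3208 in both naive and at 674 and 3074 in papain libraries, and neither passed. None of the 6 rises was called in the 4 libraries alone.

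Receptors for the cytokines that sustain or activate basophils included clear falls. Of 22 tested, Il18rap, Csf2rb2 and Il2rg fell and Il13ra1 rose, with a list median of -0.62. Il18rap, the accessory chain of the IL-18 receptor, was at 156 and 165 FPKM in naive and at 15 and 16 in papain libraries and fell by 3.29 ± 0.52 (adjusted p = 0.00822). Csf2rb2, the IL-3-specific beta chain in mice, was at 667 and 616 in naive and at 111 and 130 in papain libraries and fell by 2.41 ± 0.45 (adjusted p = 0.0153). Csf2rb, the common beta chain, was at 651 and 586 in naive and at 158 and 182 in papain libraries (adjusted p = 0.153, or 0.043 in the 4 libraries alone). The 2 beta chains are near-identical copies, so their values may share reads.

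Il2rg, the common gamma chain that IL-4 also uses, was at 191 and 179 FPKM in naive and at 110 and 73 in papain libraries and fell by 1.04 ± 0.26 (adjusted p = 0.049). Il13ra1, a receptor chain for IL-13, was at 2 and 1 in naive and at 14 and 19 in papain libraries (2.82 ± 0.37, adjusted p = 0.00391). Replicates were close in Il18rap and Csf2rb2, where the papain libraries differed little from each other.

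Surface and adhesion genes gave 2 falls and no rise among 22 tested (8 and 0 at an unadjusted p under 0.05 in limma). Below both naive libraries in both papain libraries lay 12 of the 22, against 8.96% of all genes, and the median was -0.82. The integrin chain Itgb7 was at 96 and 94 FPKM in naive and at 31 and 15 in papain libraries and fell by 2.08 ± 0.31 (adjusted p = 0.00574). Cd244, a receptor of the SLAM family, was at 25 in both naive libraries and at 4 and 3 in papain libraries and fell by 2.54 ± 0.64 (adjusted p = 0.047). The inhibitory receptor gene Lilrb4 was at 1690 and 1639 FPKM in naive and at 511 and 1278 in papain libraries and did not pass. Cd63, whose product reaches the surface when granules are released, was at 350 and 432 in naive and at 522 and 491 in papain libraries.

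None of the 20 transcription factor genes passed in limma. At an unadjusted p under 0.05 in limma 1 was higher and 1 lower, against 3062 and 545 of the 14170 genes tested. Below both naive libraries in both papain libraries lay 8 of the 20, against 8.96% of all genes. Cebpb was at 725 and 817 FPKM in naive and at 453 and 939 in papain libraries, and Nfil3 was at 158 and 157 in naive and at 55 and 95 in papain libraries. Of 16 genes of leukocytes in general Lcp1, Cd53 and Cd37 fell, by 1.01, 1.07 and 1.10, and the median was -0.70. Cd53, a tetraspanin of leukocytes, was at 439 and 356 FPKM in naive and at 223 and 159 in papain libraries (adjusted p = 0.0336). Of 12 reference genes Gapdh and Hprt rose and the median was 0.63. A difference above 0 was found in 11 of the 12, against 10403 of the 14170 genes tested. With median-ratio scaling none of the 12 was called, 7 were above 0 and the median was 0.12. With quantile normalization 1 was called, 8 were above 0 and the median was 0.28. Actb overlapped, at 1398 and 1647 in naive and at 1410 and 1900 in papain libraries, the glycolytic enzyme gene Gapdh rose from 114 and 77 to 361 and 253 FPKM, and Hprt, a purine salvage enzyme gene, from 21 and 8 to 74 and 44 (adjusted p = 0.047).

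The largest falls called in both fits, with no overlap of libraries and 10 FPKM or more in naive basophils, were led by Il18rap, Ms4a2 and Fcer1a. Prkd3, a protein kinase D, was at 247 and 218 FPKM in naive and at 42 and 33 in papain libraries and fell by 2.61 ± 0.21 (adjusted p = 0.00203). Slc6a4, the serotonin transporter, was at 70 and 62 in naive and at 11 and 9 in papain libraries and fell by 2.61 ± 0.42 (adjusted p = 0.00887). Rgs1, which dampens G protein signals from chemokine receptors, was at 1624 and 1703 in naive and at 385 and 324 in papain libraries and fell by 2.23 ± 0.53 (adjusted p = 0.0396). In all 3 genes the 2 papain libraries lay close together, unlike Hdc and Gata2. Lypd6b, Dhx40, Tbc1d4, Cd244, Csf2rb2 and Pdzd8 complete the group.

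The largest rises chosen by the same rule were of genes that were at 3 FPKM or less in naive basophils. Serpinh1, the collagen chaperone, was at 1 FPKM in both naive libraries and at 83 and 100 in papain libraries, 5.53 ± 0.75 higher (adjusted p = 0.00442). Gpc3, a cell surface proteoglycan, was at 1 in both naive and at 68 and 128 in papain libraries (5.56 ± 0.70, adjusted p = 0.0039). Ptx3, a soluble pattern recognition protein, was listed at 0 in both naive libraries and at 62 and 31 in papain libraries. Postn, Col4a2, Tnc and Ctgf, which encode matrix or matricellular proteins, and Ifi202b, C1ra, Hspb8, Ptgis and Gpx3 were the others.

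**Figure D3:**
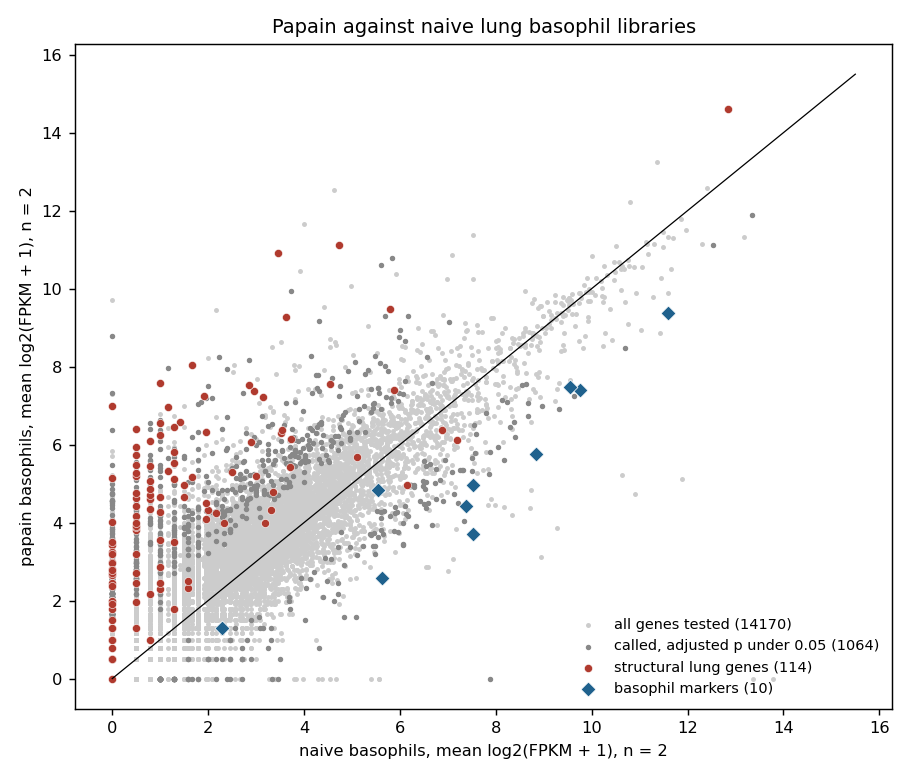
Mean log2(FPKM + 1) of naive (horizontal) and papain (vertical) basophils for each gene tested, with 114 structural lung genes in red and 10 basophil markers in blue. Structural genes lie mostly above the diagonal and basophil markers below it.

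Genes of structural lung cells were higher in papain basophils. Of 120 genes in 10 lists, 116 are in the table and 114 were tested (Cspg4 and Foxa3 had too low values). Of these, 33 rose and none fell in limma, against 6.27% and 1.24% of all genes. At an unadjusted p under 0.05 in limma 75 were higher and 1 lower, against 3062 and 545 of the 14170 genes tested. Above both naive libraries in both papain libraries lay 100 of the 114, against 37.8% of all genes. The median log2 difference was 2.90. The count of 33 was 8 in the 4 libraries alone, 3 without naive library 1, 0 without naive library 2, 51 without papain library 1 and 24 without papain library 2. The filter on low values could be passed through the papain libraries alone, so these counts are a description.

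The level of these genes differed between the papain libraries, and papain eosinophils had higher values than naive eosinophils as well. Their median was 1 and 0 FPKM in naive basophils, 11.5 in papain library 1 and 24 in papain library 2, and 37, 64, 6 and 5 of the 116 were at 0. As a share of summed FPKM they took 1.67% and 2.14% in the naive pair and 5.89% and 8.76% in papain libraries, while the 10 basophil markers took 1.47% and 1.32% in the naive pair and 0.135% and 0.368% in papain libraries. In eosinophils the median was 0 in both naive libraries, 7 and 3.5 in papain CD11c- cells and 8.5 and 6 in papain CD11c+ cells. The fibroblast list alone had medians of 0 in both naive eosinophil libraries and of 26, 19, 40 and 40 in those 4 papain eosinophil libraries, against 65 and 18 in papain basophils. Natural helper cells were at 2 in both naive libraries and at 2 and 4 in papain libraries over all structural genes. Their fibroblast list alone had medians of 12 and 14 FPKM in the naive pair and of 17 and 23 in the papain pair. Naive natural helper cells therefore already held fibroblast transcripts, unlike naive basophils and eosinophils, whose medians were near 0. Whether the responses of basophils and eosinophils differ was not tested. What part RNA of structural cells has in the lower share of basophil genes was not tested.

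**Figure D4:**
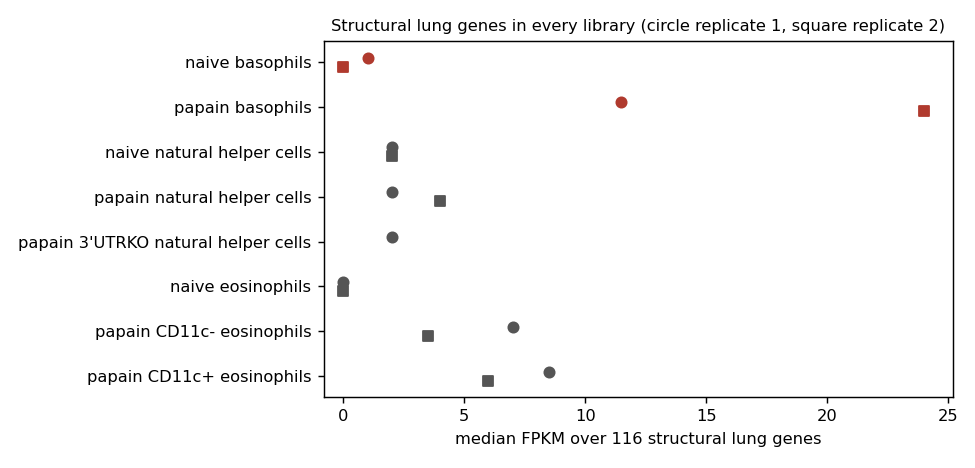
Median FPKM of 116 structural lung genes in each of the 15 libraries, grouped by cell type and treatment. The 2 papain basophil libraries, at 11.5 and 24, are the highest, and naive basophils are at 1 and 0.

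Fibroblast and matrix genes gave most of the calls, with 20 of 25 rising. They were at a median of 1 and 0 FPKM in naive, 65 in papain library 1 and 18 in papain library 2, and papain library 1 was the higher in 24 of the 25 (44.6% of all genes were). Mgp, a matrix protein that inhibits calcification, was at 39 and 2 FPKM in naive and at 3141 and 1201 in papain libraries (7.47 ± 1.45, adjusted p = 0.0187). Sparc, a collagen-binding matrix protein, was at 4 and 1 in naive and at 348 and 197 in papain libraries (6.38 ± 0.81, adjusted p = 0.0039). Col1a1, a chain of type I collagen, was at 1 and 0 in naive and at 147 and 24 in papain libraries (5.43 ± 0.91, adjusted p = 0.01). Fibronectin, Fn1, which macrophages and other cells also make, was the 1 member whose groups overlapped, at 146 and 93 in naive and at 136 and 50 in papain libraries.

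The count of 20 fibroblast genes fell to 1 in the 4 libraries alone, to 2 without naive library 1 and to 0 without naive library 2, and was 19 and 21 without papain library 1 and papain library 2. None of 8 smooth muscle and pericyte genes passed in limma. At an unadjusted p under 0.05 in limma 2 were higher and 0 lower, against 3062 and 545 of the 14170 genes tested. Acta2, smooth muscle actin, was at 8 and 10 FPKM in naive and at 24 and 15 in papain libraries.

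Blood endothelial genes had the reverse order of the papain libraries. Of 16 tested, Cldn5, Plvap, Eng, Tek and Ednrb rose, and papain library 2 was higher than papain library 1 in all 16, with medians of 1 and 0 FPKM in naive, 11 in papain library 1 and 43.5 in papain library 2. Cldn5, the tight junction claudin of vessels, was at 4 and 0 in naive and at 27 and 57 in papain libraries (4.17 ± 1.03, adjusted p = 0.0449). Plvap, which forms the diaphragms of capillaries, was at 1 and 0 in naive and at 21 and 66 in papain libraries (4.76 ± 1.20, adjusted p = 0.0464). The junction gene Pecam1, which leukocytes also express, overlapped at 40 and 28 against 30 and 84. Without papain library 2 none of the 16 was called, without papain library 1 10 were, and without either naive library none was.

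In the lymphatic list Ccl21a rose among 7 tested, from 2 and 0 FPKM in naive to 11 and 92 in papain libraries (4.27 ± 0.90, adjusted p = 0.0252). Ccl21a, the chemokine of lymphatic vessels, has near-identical copies, among which the counting may have split reads. Of 4 mesothelial genes, Wt1 at 0, 0, 1 and 6 FPKM was the call. Msln, mesothelin, was at 1 and 0 in naive and at 17 and 159 in papain libraries (adjusted p = 0.0638).

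Genes of the 2 alveolar epithelial cell types, type I and type II, were listed separately. Of 10 type I genes Pdpn, Cav1 and Igfbp2 rose, and all 10 were higher in papain library 2 than in papain library 1. Pdpn, a membrane glycoprotein, was at 3 and 0 FPKM in naive and at 81 and 108 in papain libraries (5.56 ± 0.78, adjusted p = 0.00468). Ager, the receptor RAGE, which is abundant in type I cells, was at 4 and 2 in naive and at 35 and 177 in papain libraries and did not pass (adjusted p = 0.0619).

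None of 12 type II genes passed in limma (4 higher and 1 lower at an unadjusted p under 0.05). Above both naive libraries in both papain libraries lay 9 of the 12, against 37.8% of all genes. Sftpc, the surfactant protein that defines type II cells, was at 76 and 1 FPKM in naive and at 498 and 760 in papain libraries (5.63 ± 1.75, adjusted p = 0.087). Sftpa1 was at 11 and 10 in naive and at 83 and 73 in papain libraries (adjusted p = 0.138, or 0.0157 in the 4 libraries alone). Napsa, an aspartic protease of type II cells, went the other way, at 71 and 68 in naive and at 40 and 23 in papain libraries. It and the epithelial cadherin gene Cdh1, at 139 and 150 against 39 and 121, were the 2 structural genes below both naive libraries in both papain libraries.

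Among airway genes Scgb1a1 was high already in naive basophil libraries, while the secretory list had medians of 1 and 1.5 FPKM there and of 52 and 108.5 in papain libraries 1 and 2. Scgb1a1, the secretory protein of club cells, was at 6363 and 8531 FPKM in naive and at 19550 and 32382 in papain libraries, where it was the top gene of both. Its share of summed FPKM was 1.44% and 1.99% in the naive pair and 4.03% and 5.68% in papain libraries, and the difference of 1.77 ± 1.91 did not pass (adjusted p = 0.611). Clca3, a goblet cell product, was listed at 0 in both naive libraries and at 91 and 173 in papain libraries (adjusted p = 0.0998, or 0.0177 in the 4 libraries alone). None of 9 secretory genes passed in limma. At an unadjusted p under 0.05 in limma 2 were higher and 0 lower, against 3062 and 545 of the 14170 genes tested.

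Of 8 ciliated cell genes Tppp3, Dnahc5 and Dnaic1 rose, the latter pair from 0 to 1 FPKM, and Tppp3 from 21 and 7 to 57 and 85. None of the 15 genes of general epithelium passed in limma (9 higher and 0 lower at an unadjusted p under 0.05), with all 15 higher in papain library 2 than in papain library 1. The keratin gene Krt8 was at 12 and 3 FPKM in naive and at 80 and 417 in papain libraries (4.67 ± 1.97, adjusted p = 0.177).

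**Figure D5:**
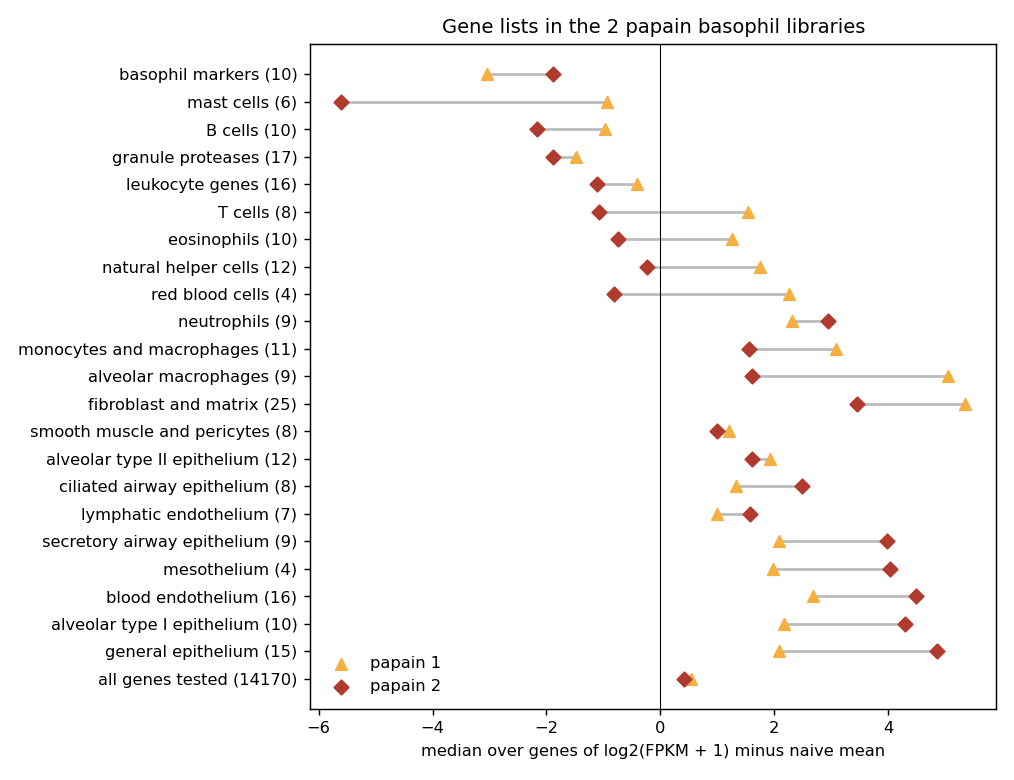
Median log2(FPKM + 1) difference of each gene list from the naive mean, drawn separately for papain library 1 and papain library 2. Fibroblast genes are higher in papain library 1, endothelial, type I and general epithelial genes in papain library 2, and basophil markers are below the naive mean in both, at -3.04 and -1.88.

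Transcripts of other immune cells were also unequal between the papain libraries. Alveolar macrophage genes had medians of 3 and 2 FPKM in the naive pair, 99 in papain library 1 and 10 in papain library 2, and papain library 1 was the higher in 8 of 9. Chi3l3, a chitinase-like protein of macrophages with a close copy in Chi3l4, was at 35 and 27 FPKM in naive and at 10500 and 109 in papain libraries. Marco, a scavenger receptor of alveolar macrophages, was at 1 and 2 in naive and at 408 and 10 in papain libraries. None of these 9 genes passed in limma (2 higher and 0 lower at an unadjusted p under 0.05).

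Natural helper cell genes were at a median of 4 and 1 FPKM in naive, 21.5 in papain library 1 and 4 in papain library 2, with Arg1 and Il5 called among 12. Icos, a costimulatory receptor of these cells and of T cells, was at 5 and 0 in naive and at 114 and 0 in papain libraries. Neutrophil genes were higher in both papain libraries, at a median of 5 in both naive and 33 and 51 in papain libraries. S100a8, a calcium-binding protein of neutrophils, was at 118 and 288 FPKM in naive and at 1777 and 4038 in papain libraries, and did not pass (3.85 ± 2.33, adjusted p = 0.337). T cell genes had medians of 4.5 and 0 against 5.5 and 0, eosinophil genes 2 and 3 against 9 and 1, and the eosinophil peroxidase gene Epx was at 0 in all 4 libraries. B cell genes had medians of 15 and 21.5 in the naive pair and 11 and 2 in papain libraries. What part these cells have in the chemokine and cytokine values above was not tested.

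Genes that IL-4 and IL-13 induce in their target cells gave 3 rises among 20 tested, Postn, Arg1 and Ccl11, with a median of 2.46. Postn, a matricellular protein of fibroblasts and epithelium, was listed at 0 in both naive libraries and at 41 and 23 FPKM in papain libraries (adjusted p = 0.00259). Arg1, which breaks down arginine, was at 3 and 0 in naive and at 233 and 19 in papain libraries (5.10 ± 1.01, adjusted p = 0.0198). Retnla, a secreted product of macrophages and epithelium, was at 126 and 1 in naive and at 3714 and 2807 in papain libraries, and did not pass (7.66 ± 2.16, adjusted p = 0.0663). Postn was called in the 4 libraries alone as well, while Arg1 and Ccl11 were not.

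The papain response of basophils was also set against that of natural helper cells of the same treatment. The difference between the responses (papain minus naive basophils, minus the same in natural helper cells) passed in limma for 624 genes (4.4%), 432 higher (3.05%) and 192 lower (1.35%) in basophils. This test uses the same 4 basophil libraries as the comparison above, and the natural helper cell libraries are separate from them. Of the 432 and 192 genes, 371 and 120 were also called in the same direction in that comparison. Where a gene was at 0 in all natural helper cell libraries, the difference is the basophil change alone and compares no second response. Of the 114 structural genes, 22 had a higher response in basophils and Napsa a lower one. The median difference of the 114 in natural helper cells was 0.50.

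The Il13 values went in opposite directions in the 2 cell types, but neither change passed in limma (adjusted p = 0.0619 in basophils). In natural helper cells Il13 was at 93 and 218 FPKM in naive and at 407 and 377 in papain libraries (1.45 higher, adjusted p = 0.0634). Only the difference between the responses passed, at -3.79 ± 0.74 (adjusted p = 0.0239). Il4 was near 20 FPKM in natural helper cells, at 19 and 25 in the naive pair and 20 and 24 in papain libraries, and the responses differed by -2.22 ± 0.49 (adjusted p = 0.0408). Il18rap was at 29 and 27 in naive and at 92 and 67 in papain natural helper cells, and the responses differed by -4.75 ± 0.60 (adjusted p = 0.00716).

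Of the 10 basophil markers, 2 passed in limma for the difference of responses. They were Fcer1a, at -2.96 ± 0.67 (adjusted p = 0.0438), and Ms4a2, at -3.04 ± 0.57 (adjusted p = 0.0217). Both genes were at 0 in all natural helper cell libraries, so each value is the gene's basophil change alone and compares no second response. The difference did not pass for Mcpt8 (adjusted p = 0.171), Gata2 (0.328), Hdc (0.155) or Il6 (0.149). Mcpt8 was likewise at 0 in natural helper cells, and Gata2 was at 0 or 1 FPKM. On the structural side Sparc, at 40 and 68 FPKM in the naive pair and 48 and 79 in papain natural helper cells, differed by 6.14 ± 0.92 (adjusted p = 0.0084).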

How the data were processed

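RNA was poly(A)-selected and sequenced, per the labels' protocols. The submitters' processing notes name TopHat 1.4.0, Cufflinks 1.3.0 and mm9. The deposited score per gene and library is FPKM rounded to whole numbers by the authors, a unit read from the values and the tool. The annotation and the rounding step are not given in the sources used here. All 15 columns were mapped by their names. Digit-grouping commas were removed from 1008 cells and 3 values next to 0 were set to 0.

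Genes reaching 1 FPKM in 2 or more of 14 libraries were fitted as log2(FPKM + 1) in limma 3.58.1 (R 4.3.3) with a coefficient for each of 7 groups, precision weights per group, a mean-variance trend in eBayes and two-sided p-values adjusted by Benjamini-Hochberg over 14170 genes (7 residual degrees of freedom, prior 1.85). On simulated data of 13785 genes for this comparison, 2%, 34%, 68% and 80% of changed genes were called at log2 changes of 1, 2, 3 and 4. False calls were 60 of 152, and 2 of 91 at a mean of 10 FPKM or more. Changes were put only into genes above 10 FPKM in naive basophils, so calls at lower levels could only be false. An equal-spread fit gave 296 of 427.

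Named genes are the 4 markers Mcpt8, Fcer1a, Gata2 and Hdc, the cytokines Il4, Il13 and Il6, up to 12 rises and falls called in both fits, the 4 most abundant members per list, and 5 interaction genes per direction. Other list members named were chosen after their values were seen. Members and lists were chosen with earlier results of these data known. A list member that the rule selects is not reported here.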

Additional observations from a re-analysis of the deposited data

Results flagged for a closer look

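The genes below are named because their papain response differed between basophils and natural helper cells by limma's test of that difference. Values are the basophil response minus the natural helper cell response in log2 units, with n = 2 libraries in each of 4 groups.

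The 3 copies of the lymphatic chemokine gene Ccl21, among which reads may be split, had the largest positive differences named, at 7.17 ± 1.03 for Ccl21a (adjusted p = 0.0079), 6.60 ± 0.84 for Ccl21b (adjusted p = 0.00746) and 6.49 ± 0.87 for Ccl21c (adjusted p = 0.0079). Ccl21a was at 103 and 102 FPKM in naive and at 11 and 15 in papain natural helper cells, so that it went down there while it rose in basophils. Sparc differed by 6.14 ± 0.92 (adjusted p = 0.0084). Clec3b, which encodes the plasminogen-binding protein tetranectin, differed by 5.95 ± 0.81 (adjusted p = 0.0079), with 2 and 0 FPKM in the naive pair and 97 and 49 in papain basophils against 58 and 61 in the naive pair and 37 and 40 in papain natural helper cells.

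On the negative side Il18rap differed by -4.75 ± 0.60 (adjusted p = 0.00716). Il1r2, the decoy receptor for IL-1, differed by -4.39 ± 1.01 (adjusted p = 0.0457), from a gain in natural helper cells (6 and 2 FPKM in naive, 66 and 68 in papain) beside 82 and 100 in the naive pair and 75 and 54 in papain basophils. The homeobox gene Hhex differed by -3.88 ± 0.75 (adjusted p = 0.0237), with 64 and 60 FPKM in the naive pair and 8 and 19 in papain basophils. Il13 differed by -3.79 ± 0.74 (adjusted p = 0.0239), and Orm3, an acute phase protein gene at 7 and 15 FPKM in the naive pair and 0 and 1 in papain basophils, by -3.71 ± 0.77 (adjusted p = 0.0321). Fcer1a and Il4, genes named whatever their change, differed by -2.96 ± 0.67 (adjusted p = 0.0438) and -2.22 ± 0.49 (adjusted p = 0.0408). Fcer1a was at 0 in all natural helper cell libraries, so its value is the basophil change alone.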

How the results depend on the processing

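No named gene that was called in either fit changed sign under any alternative run. The 1064 calls became 504 with no filter on low values, 3709 with equal spread in all groups and 490 in the 4 libraries alone, and 2 to 1711 with 1 library left out. The 2 basophil markers called lower became 1 with a pseudocount of 0.5 or no filter, 5 with a pseudocount of 4, a filter at 5 FPKM or median-ratio scaling, 4 with quantile normalization, 7 with equal spread, and 0 to 2 with 1 library left out. The 33 structural genes became 82 with equal spread and 8 in the 4 libraries alone, and 0 to 51 with 1 library left out. The 624 genes with different responses became 395 with no filter, 350 with a filter at 5 FPKM, 322 rescaled without small RNA genes, 970 with equal spread, and 12 to 1078 with 1 library left out. The causes were not tested, except that fewer genes or libraries enter some of these fits. With 1 basophil library left out, the lone library of that group was given the spread of the other basophil group. Rises fell to 351 and falls grew to 434 with quantile normalization, and falls to 324 with median-ratio scaling and 268 without small RNA genes. A replicate block gave 785 calls, 2 markers, 28 structural genes and 447 different responses. The deviations of same-numbered libraries correlated at 0.115 and nothing in the labels pairs them. Without naive library 2 the 2 calls stood beside 1426 genes at an unadjusted p under 0.05. Depth is unknown, so nothing can be said of counting error.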

Other observations

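Immediate early and heat shock genes, which respond to handling and stress, gave no call among 21 tested in limma (1 higher and 1 lower at an unadjusted p under 0.05), and their median of 0.46 was -0.05 with median-ratio scaling. Ier3, an early response gene, was at 1960 and 1908 FPKM in naive and at 496 and 1821 in papain basophils. Hspa8, a constitutive chaperone, was at 516 and 297 in naive and at 1125 and 858 in papain libraries. Hspa1a, an inducible chaperone with a close copy in Hspa1b, was at 49 and 10 in naive and at 316 and 409 in papain libraries (adjusted p = 0.429).

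Red blood cell genes were highest in papain library 1, with medians of 75.5 and 118.5 FPKM in the naive pair and 490 and 42 in papain libraries. Hba-a1, an alpha globin gene with a close copy, was at 94 and 143 in naive and at 563 and 75 in papain libraries, with overlapping groups.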
